A study of Mus musculus with 26 samples.

Results

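The fibroblast-enriched microRNA assays are 22 of the 315 assay positions of a mouse RT-qPCR panel, chosen because their level was highest in tail-tip fibroblasts. The level of an assay is a log2 value, namely a reference minus the threshold cycle (Ct) of the assay, where the reference is the sample's mean Ct over those assays that every one of the 26 samples detected. A Ct is the PCR cycle at which a signal appears, so a lower Ct and a higher level both mean more RNA. A missing Ct, or one above 35, was set to 35. The median level was taken in untreated induced pluripotent stem cells (iPSC), embryonic stem cells (ESC), fibroblasts, islets and hepatocytes. An assay was kept when these 5 medians spanned at least 3 and the fibroblast median led the highest of the other 4 by at least 1. The numbers were met by 24 assays, of which A44 and A49 were left out by name, as were 4 positions that did not meet them (B13, B14, B95 and C61). These values chose the assays, so the excess in fibroblasts is given as a description, with no test.

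The panel used stem-loop RT-qPCR. A hairpin-shaped primer starts reverse transcription on the mature microRNA, and a TaqMan probe then reports the PCR product. The fibroblasts (n = 5) came from mouse tail tips and were the parent cells of the iPSC clones (n = 5). The ESC lines D3 and R1 gave 3 samples each, and treatment of iPSC clones 2 and 3 with activin A, at 100 ng/ml for 5 days per the protocol, gave 2 samples each. Primary cells from adult C57BL/6 mice made up the last groups, with 3 samples of hepatocytes and 3 of pancreatic islets. No other genotype, strain or age is given for these groups. Untreated iPSC and both ESC lines grew with leukemia inhibitory factor on a layer of inactivated mouse embryonic fibroblasts, and the treated cells were freed of that layer, so treatment and loss of the feeder layer cannot be told apart. The labels do not say whether fibroblast, ESC, islet or hepatocyte samples came from separate cultures or animals, so the spread between samples may be technical.

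A mature microRNA is a short RNA that guides Argonaute proteins to matching messenger RNAs and lowers their translation and stability. Fibroblasts and other mesenchymal cells carry microRNAs that are scarce in epithelial and pluripotent cells, and the let-7 family is a textbook example of microRNAs that are high in differentiated cells and low in pluripotent ones. The files name the assays by plate position (A55, B36 and so on) and do not pair them with microRNAs, so no function, sequence or cell type marker could be attached to a position here, and the labelled cell types were not checked against markers.

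Between 187 and 276 of the 315 assays had a Ct below 35 in a sample, and fibroblast replicate 5 had the fewest. The 22 assays had a Ct below 35 in all 5 fibroblast samples without exception, as 171 of the 315 assays did. Of their values elsewhere, 4 of 110 were not below 35 in untreated iPSC, 5 of 132 in ESC, 2 of 66 in islets and 14 of 66 in hepatocytes. The assays were thus lower than in fibroblasts rather than absent in most other samples, and hepatocytes held most of the values without detection. Over the panel, too, hepatocytes had few assays below 35, namely 210 to 219 of 315. The counts were 241 to 275 in untreated iPSC and ESC and 267 to 273 in islets, so weak detection in hepatocytes is not particular to the 22. RNA from fewer fibroblast-like cells and less RNA per cell cannot be told apart in such bulk samples.

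The raw Ct of the fibroblast samples differed widely, and the reference removed most of that. Fibroblast replicate 3 had the lowest raw Ct among fibroblasts in 21 of the 22 assays and replicate 5 the highest in all 22. The same held for 134 and 156 of the 171 assays detected in all fibroblasts. The mean reference Ct of plates A and B was 23.2 in replicate 3 and 29.9 in replicate 5, against 25.3, 26.7 and 26.5 in replicates 1, 2 and 4. Over the 22 assays, the median SD between fibroblast samples was 2.63 cycles for raw Ct and 0.72 for the level. Of the 22, 12 were themselves among the reference assays, which number 87 on plates A and B, 26 on C and 9 on D.

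After the reference was subtracted, the median level of the 22 assays was 1.69, 1.75, 1.85, 1.57 and 1.49 in fibroblast replicates 1 to 5. It ranged from -2.73 to -1.79 in untreated iPSC, from -2.72 to -1.26 in ESC, from -1.51 to -0.12 in islets and from -4.15 to -2.53 in hepatocytes. In the 4 activin-treated samples, which the rule did not use for its medians, it ranged from -2.41 to -1.35. The fibroblast samples lay close together and above every other sample, and islets were the nearest group. Over all 315 assays the median level was lower in fibroblasts, at -3.91 to -3.29, than in the pluripotent samples, at -2.72 to -1.90. It was -2.34 to -2.15 in islets and -4.62 to -4.14 in hepatocytes. In every islet and hepatocyte sample the median of the 22 lay above that of all assays, so the low level in hepatocytes is not particular to the 22.

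**Figure D1:**
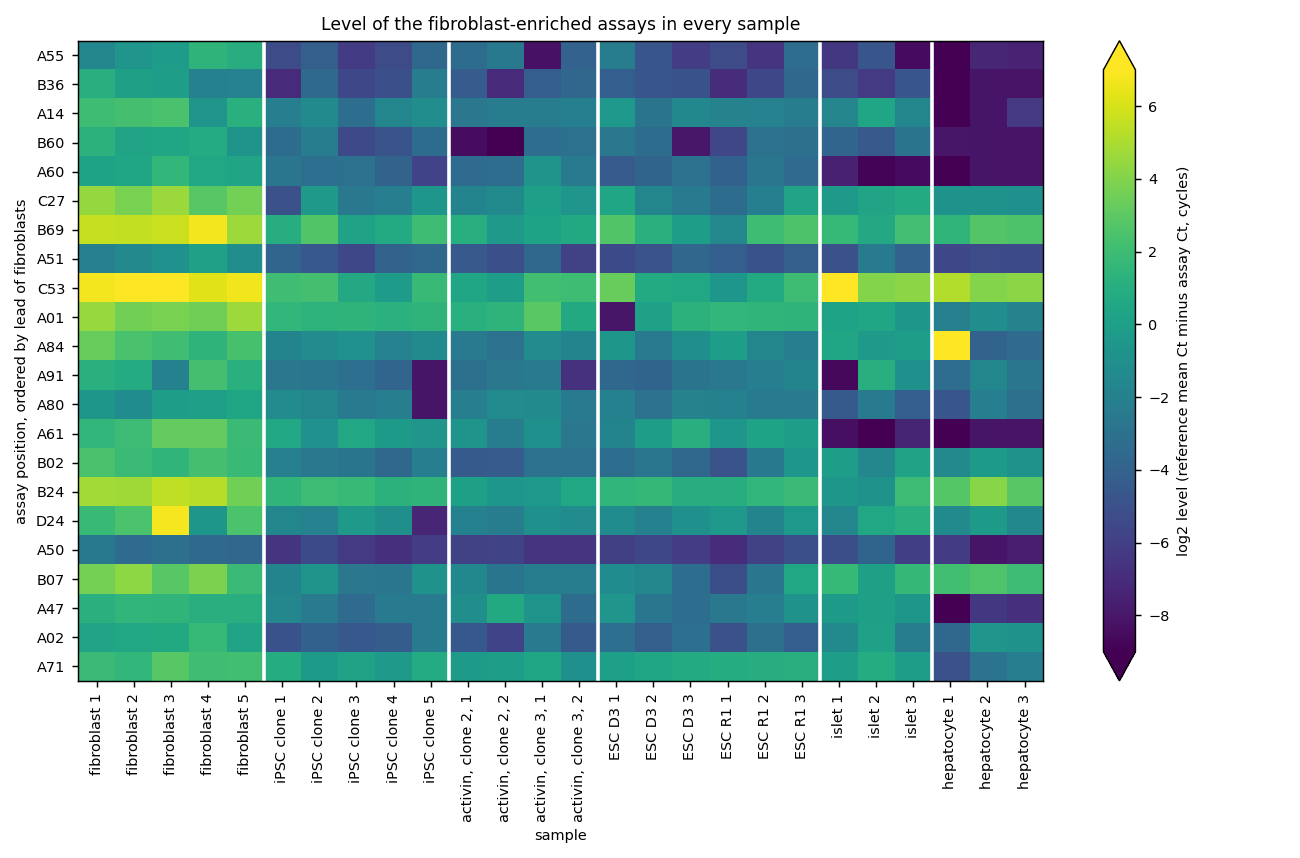
Log2 level (reference mean Ct minus assay Ct, in cycles) of the 22 fibroblast-enriched assays, in rows ordered by the lead of fibroblasts, in all 26 samples, in columns grouped by cell type and separated by white lines. Values beyond -9 and 7 take the end colours. The 5 fibroblast columns are brighter than the rest in most rows, and the hepatocyte columns are dark at A55, B36, A14, B60, A60, A61, A50 and A47.

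The lead of the fibroblast median over the next group ranged from 1.28 to 4.84 on the log2 scale, with a median of 2.22. At A55 the lead of 4.84 corresponds to 28.6-fold if each cycle doubles the product, and at A71 the lead of 1.28 corresponds to 2.42-fold. The efficiency of the assays was not given in the sources used here. Islets were the next highest group for 8 assays, hepatocytes and ESC for 5 each and iPSC for 4. The lowest group was hepatocytes for 10 assays, iPSC for 5, islets for 4 and ESC for 3. At A60 and A61 islets were counted as lowest, but hepatocytes had no Ct below 35 there, so their order is not settled.

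The assays were sorted into 3 patterns by the order of the medians of the other groups, with no minimum gap. In 8 assays (A55, B36, B60, A60, A01, A80, A61 and A71) both endodermal tissues, islets and hepatocytes, had lower medians than both pluripotent cell types. In 7 assays (C27, B69, C53, A91, B02, B07 and A02) both pluripotent types were lower than both endodermal tissues. The remaining 7 (A14, A51, A84, B24, D24, A50 and A47) were mixed. Some places rest on gaps smaller than the SD between samples of either group. At A91 the medians of ESC and hepatocytes were -2.73 and -2.71. Those of islets and iPSC were -5.37 and -5.09 at B36, -3.75 and -3.37 at B60 and -0.01 and 0.20 at A71. Over all 315 assays, the first order was found in 34.3% and the second in 28.9%, so neither order is particular to the 22.

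Among assays of the first pattern, A55 had the widest lead. Its Ct was 26.9, 27.4, 23.3, 25.1 and 28.9 in fibroblast replicates 1 to 5, and 33.3, 31.0, 33.9, 33.5 and 30.6 in iPSC clones 1 to 5. The ESC samples ran from 29.3 to 35.4, with a median of 32.6. Islet replicates 1 and 2 reached 31.2 and 30.2, and replicate 3 had no Ct, while the hepatocyte samples stood at 36, 34.2 and 34.3. Every fibroblast sample lay above every other sample in level, with a median of -0.14 against -5.29 in iPSC, -4.98 in ESC, -6.43 in islets and -7.47 in hepatocytes. A55 was therefore low in all 4 other cell types, and near the detection limit in hepatocytes.

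Assay B36 behaved much alike. Fibroblasts had Ct values of 24.3, 26.7, 23.3, 28.4 and 31.8. In iPSC clone 1 it had no Ct, and clones 2 to 5 gave 30.3, 33.2, 33.3 and 29.1. The late Ct of 31.8 in fibroblast replicate 5 overlapped the raw values of iPSC, but that sample also had the highest reference Ct, and in level all 5 fibroblast samples (-1.96 to 1.02) lay above all iPSC samples. ESC ran from 31.1 to 35.3 (median 32.1) and islets gave 30.1, 31.9 and 31.2. Hepatocyte replicate 1 gave 34.6, replicate 2 a late 37.4 and replicate 3 no Ct. The median level was -0.09 in fibroblasts and -5.09, -4.86, -5.37 and -8.13 in iPSC, ESC, islets and hepatocytes, the last at the limit in 2 of 3 samples.

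For B60, the fibroblast Ct values were 24.1, 26.4, 22.7, 25.6 and 30.6, and the iPSC clones gave 31.3, 29.1, 33.1, 33.03 and 30.3. One ESC sample, D3 replicate 3, had no Ct, and the other 5 ran from 29.7 to 33.6. Islets gave 28.5, 30.1 and 29.3, while hepatocytes gave 33.6, 35.5 and 36. In level, fibroblasts (median 0.44) and the next group, ESC (median -3.20), differed by 3.64, and no other sample reached the lowest fibroblast sample. Hepatocytes were again lowest, at the limit in 2 of 3 samples.

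A60 and its neighbour A61 were late or undetected in both endodermal tissues. A60 had a Ct of 25.1, 26.3, 21.6, 25.9 and 29.5 in fibroblasts and of 30.7, 30.0, 30.6, 32.1 and 32.7 in iPSC. The ESC ran from 30.04 to 32.01, with a median of 31.3. Islets gave 32.3, 34.4 and 37.7, and none of the 3 hepatocyte samples had a Ct. Fibroblasts, at a median level of 0.41, led iPSC by 3.58. They led islets by 8.91, a value that rests on the limit of 35, since the islet median is that of replicate 3. Pluripotent samples thus stood between fibroblasts and the endodermal tissues. Untreated iPSC and ESC grew on a fibroblast feeder layer, and its share in their levels was not tested.

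A61 was more abundant in the pluripotent samples, so its lead was only 2.03. Its fibroblast Ct was 23.7, 24.8, 19.99, 23.3 and 27.9, against 27.5, 27.7, 27.1, 28.5 and 27.6 in iPSC. Islets gave 33.1, 34.6 and 33.8, and of the hepatocyte samples replicate 2 alone had a Ct, at 39.3. The median level was 1.97 in fibroblasts, -0.31 in iPSC, -0.07 in ESC and -8.31 in islets, and hepatocytes were at the limit. The step from fibroblasts to islets, 10.28, was the widest of any of the 22 assays to a group with detection in all its samples.

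A01 closed the 10 widest leads, at 2.40. The Ct was 20.8, 23.2, 19.4, 23.0 and 25.2 in fibroblasts and 26.4, 25.5, 26.3, 26.9 and 25.5 in iPSC. In ESC, D3 replicate 1 had no Ct, and the other 5 samples ran from 25.7 to 27.3. Islets gave 24.4, 25.1 and 27.0 and hepatocytes 27.5, 28.0 and 28.7. The median levels of iPSC (1.38) and ESC (1.37) were nearly the same, islets followed at 0.31 and hepatocytes at -1.85, and the lowest fibroblast sample, at 3.51, was above all of them. The iPSC clones lay close together at this assay, with an SD of 0.14 (n = 5).

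In the second pattern, with pluripotent cells lowest, C27 had the widest lead, 3.45. Fibroblasts gave a Ct of 20.7, 22.2, 19.03, 21.1 and 25.7. The iPSC clones gave 33.4, 26.2, 30.1, 27.4 and 26.6, and ESC ran from 25.0 to 30.9 with a median of 28.4. Islets stood at 26.2, 26.3 and 26.5 and hepatocytes at 29.4, 28.5 and 30.2. In level the order was fibroblasts (3.78), islets (0.33), hepatocytes (-0.79), ESC (-1.87) and iPSC (-2.15), with no overlap between fibroblasts and any other sample. The pluripotent samples varied most, with an SD of 1.86 between iPSC clones (n = 5) against 0.71 between fibroblast samples (n = 5).

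B69 was abundant everywhere and most abundant in fibroblasts, at a Ct of 19.8, 21.2, 17.5, 19.7 and 25.2. The iPSC clones gave 27.0, 24.2, 27.4, 27.4 and 24.9, and ESC ran from 24.3 to 29.5 with a median of 26.4. Islets stood at 23.0, 24.9 and 24.2 and hepatocytes at 24.04, 24.1 and 24.4. The median level in fibroblasts was 5.57, and the other groups followed at 2.51 (hepatocytes), 1.72 (islets), 1.58 (ESC) and 1.00 (iPSC). Every fibroblast sample lay above every other sample.

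C53 had the highest median level in fibroblasts among the 22 assays, 6.70, from Ct values of 18.5, 18.8, 15.6, 17.6 and 22.6. Untreated iPSC gave 26.4, 23.5, 26.8, 25.5 and 24.2, and ESC ran from 23.3 to 28.2 (median 25.7). Hepatocytes stood at 23.5, 23.7 and 25.0. The islets disagreed, with 17.2 in replicate 1 and 22.6 and 23.1 in replicates 2 and 3. Islet replicate 1, at a level of 8.63, was above all fibroblast samples, whereas the other islet samples, at 4.02 and 4.20, were below all of them. The place of C53 among the 22 assays rests on the median over islets, and it was lost without islet replicate 2 (lead 0.28) or without islet replicate 3 (lead 0.37).

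Among the assays of mixed order, A14 separated hepatocytes from all other cells. Its Ct was 23.3, 24.4, 20.8, 27.2 and 28.7 in fibroblasts and 30.1, 28.2, 30.9, 29.8 and 28.0 in iPSC. The ESC ran from 27.5 to 30.4 with a median of 29.7, islets gave 26.4, 25.1 and 28.1, and hepatocytes gave 35.4, 36 and 33.2. Fibroblasts had a median level of 2.05, iPSC and islets both -1.63, ESC -1.88 and hepatocytes -8.12. Fibroblast replicate 4, at -0.66, was low for its group and lay below islet replicate 2, at 0.49, and ESC D3 replicate 1, at -0.48. A14 is thus one of the assays whose fibroblast samples overlapped those of another cell type.

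In fibroblasts A51 was the faintest of the 10. They gave 27.4, 28.2, 24.1, 26.3 and 31.0 and iPSC 31.8, 31.4, 33.2, 32.04 and 30.5. Islets stood at 29.8, 27.9 and 30.4, hepatocytes at 31.0, 32.2 and 32.3, and ESC ran from 30.7 to 33.5 with a median of 32.3. The median level was -1.19 in fibroblasts and -3.88, -4.56, -3.95 and -5.42 in iPSC, ESC, islets and hepatocytes. No sample of these 4 groups overlapped the fibroblasts.

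**Figure D2:**
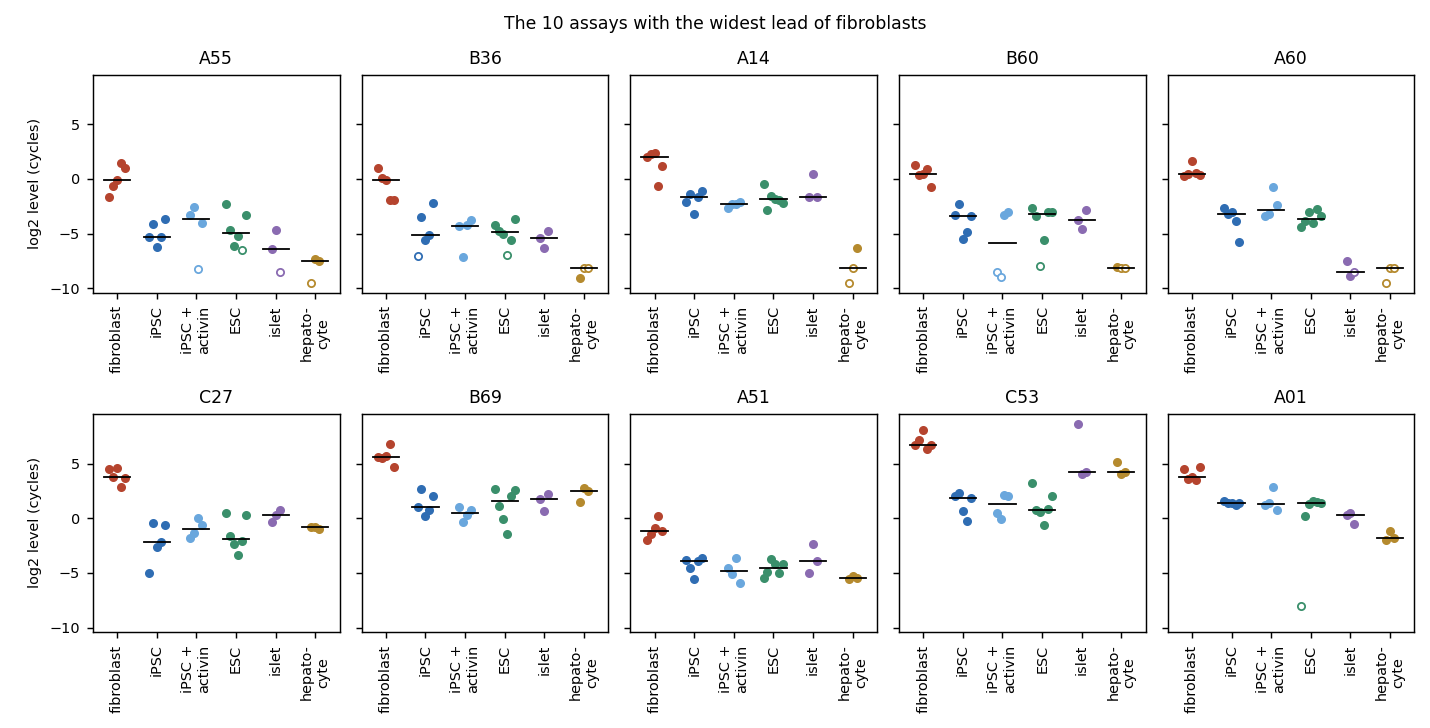
Log2 level (vertical axis, reference mean Ct minus assay Ct, in cycles) of the 10 assays with the widest lead, 1 point per sample, by cell type. Black lines are group medians, and open points have no Ct below 35. Fibroblast points sit above all others except in A14, where replicate 4 overlaps, and C53, where islet replicate 1 is higher.

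The other 11 assays had leads between 1.28 and 2.33. A84 led islets by 2.33, and 1 hepatocyte sample stood far off. Hepatocyte replicate 1 had a Ct of 12.4 at A84, against 30.8 and 30.3 in replicates 2 and 3. The latter were below all fibroblast samples in level. A Ct under 15 occurred in 26 of the 8190 values of the table, including 1 of the 572 values of the 22 assays. A84 lost its place without hepatocyte replicate 2 or without hepatocyte replicate 3, since the median then moved towards the early value. A91 (lead 2.11) was uneven too, with levels of 1.16, 0.87, -1.99, 2.27 and 1.17 in fibroblasts, and a Ct of 33.4, 24.5 and 27.4 in the islet samples. D24 (lead 1.88) spread most of all, with a Ct of 15.3 in fibroblast replicate 3 against 23.5, 24.3, 24.5 and 28.4 in replicates 1, 2, 4 and 5, and an SD of 2.64 in level (n = 5).

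By contrast A47 (lead 1.45) was the most even in fibroblasts, at levels of 1.17, 1.55, 1.48, 1.01 and 1.10, an SD of 0.24. It was next highest in islets (-0.28), lower in iPSC and ESC (both -2.37) and lowest in hepatocytes (-6.86). B02 (lead 1.98), B07 (1.51) and A02 (1.39) had fibroblast medians of 1.91, 3.67 and 0.54 and shared an order in which the pluripotent cells were far below. The fibroblast median exceeded that of iPSC by 4.54, 5.48 and 4.81 in these assays, and that of hepatocytes by 2.78, 1.51 and 1.39. B24 (lead 1.90) was next highest in hepatocytes, at 2.86 against 4.76 in fibroblasts, and lowest in islets, at -0.52. A80 (lead 2.09), A50 (1.75) and A71 (1.28) completed the set. A50 was faint in all cells, with a fibroblast median of -3.43 and iPSC at -6.27. In A80 the lowest median was that of islets, at -4.24, and in A71 that of hepatocytes, at -2.92.

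The nearest assays outside the threshold of 1 on the lead were B93 at 0.83, B09 at 0.68 and A42 at 0.63, and the nearest inside were A71 at 1.28, A02 at 1.39 and A47 at 1.45. A35 and C54 had leads of 1.31 and 1.18 but spanned only 2.79 and 2.06. The 2 left-out positions that met the numbers, A49 and A44, had leads of 6.23 and 3.01.

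Counted by samples, every fibroblast sample lay above every iPSC sample for 21 of the 22 assays, the exception being D24. This was so for 17.3% of 271 assays, counting those with a Ct below 35 in 50% or more of the fibroblast or of the iPSC samples. For ESC it was 19 of 22 (15.6% of all), for islets 18 of 22 (13.3%) and for hepatocytes 17 of 22 (22.9%). The rule used these contrasts, so the counts add nothing to it. Against all other samples together, 15 of the 22 did not overlap (6.18% of 275 assays), and the 7 that did were A14, C53, A84, A91, B24, D24 and B07.

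Relative to fibroblasts, iPSC and ESC stood nearly level in these assays. The fibroblast median exceeded the iPSC median by 1.92 to 5.92, with a median of 3.78 over the 22 assays, and the ESC median by 1.28 to 5.92, likewise with a median of 3.78. The medians of iPSC and ESC differed by less than 1 in 21 of 22 assays and by 1.04 in the other. How many of all assays differed by less than 1 was not counted. The median absolute difference was 0.33 over the 22 and 0.45 over all 315 assays. In islets the shortfall against fibroblasts ranged from 1.45 to 10.28 (median 3.11), and in hepatocytes from 1.39 to 10.17 (median 4.42), the widest being at A14, where the hepatocyte median is at the limit. Islets were above hepatocytes in 14 of the 22 assays, and by more than 3 in 4 of them. The shares over all assays were not counted. The median difference over the 22 was 1.30, against -0.19 over all assays.

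The authors normalized to the small nuclear RNA RNU6. In the authors' deposited table, a positive value means a later normalized Ct, and so less RNA, in the group named first. All 22 assays have a positive value there for iPSC against fibroblasts. The deposited values range from 4.59 at A80 to 8.57 at C27, with a median of 6.72, against 1.87 over all 296 assays with a value, of which 72.0% are positive. For islets against hepatocytes 21 of the 22 have a value in the authors' deposited table, and 0 are positive, so that by RNU6 islets held more RNA in each of them (19.6% of all 286 values are positive). The deposited value is widest at A14, -10.69, where the hepatocyte Ct values were a late 35.4, 36 and 33.2, and narrowest at B24, -0.15. With the mean Ct reference, the median level of 14 of the 22 was higher in islets and that of 8 (A60, B69, C53, A80, A61, B24, B07 and A02) was not. By medians of level, B69, A80, B24, B07 and A02 thus stood in the opposite order to the deposited values. By group means of level, A02 was higher in islets (-1.19, against -1.71 in hepatocytes). A84 (0.05 in islets, 1.93 in hepatocytes) and A91 (-2.84 and -2.54) were then higher in hepatocytes. Whether the reference or the use of medians sets these orders was not tested. At C53 the medians of islets and hepatocytes differed by only 0.01 with the mean Ct. A60 and A61 had no hepatocyte Ct below 35, so their order under the mean Ct is not settled, and A60 has no deposited value. At A61 only hepatocyte replicate 2 had a Ct, at 39.3, so its order by RNU6 is not settled either.

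The assays were spread unevenly over the plates. Plate A held 13 of the 22 among its 96 positions (13.5%), plate B 6 of 96 (6.25%), plate C 2 of 95 (2.11%) and plate D 1 of 28 (3.57%), against 6.98% over the panel. Plates A and B, plate C and plate D had separate references, and the split depended in part on that. With 1 mean Ct over all plates, B93, C23, C37, C54, C57 and C73 also met the rule, and A02, B07 and B24 did not. A01 and A02, A50 and A51, and A60 and A61 were pairs of neighbours, and the left-out A49 adjoined A50. The order of microRNAs on the plates is not given in the sources used here. With raw Ct and no reference, the fibroblast median was highest for 21 of the 22 assays, and for 24.1% of all 315.

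**Figure D3:**
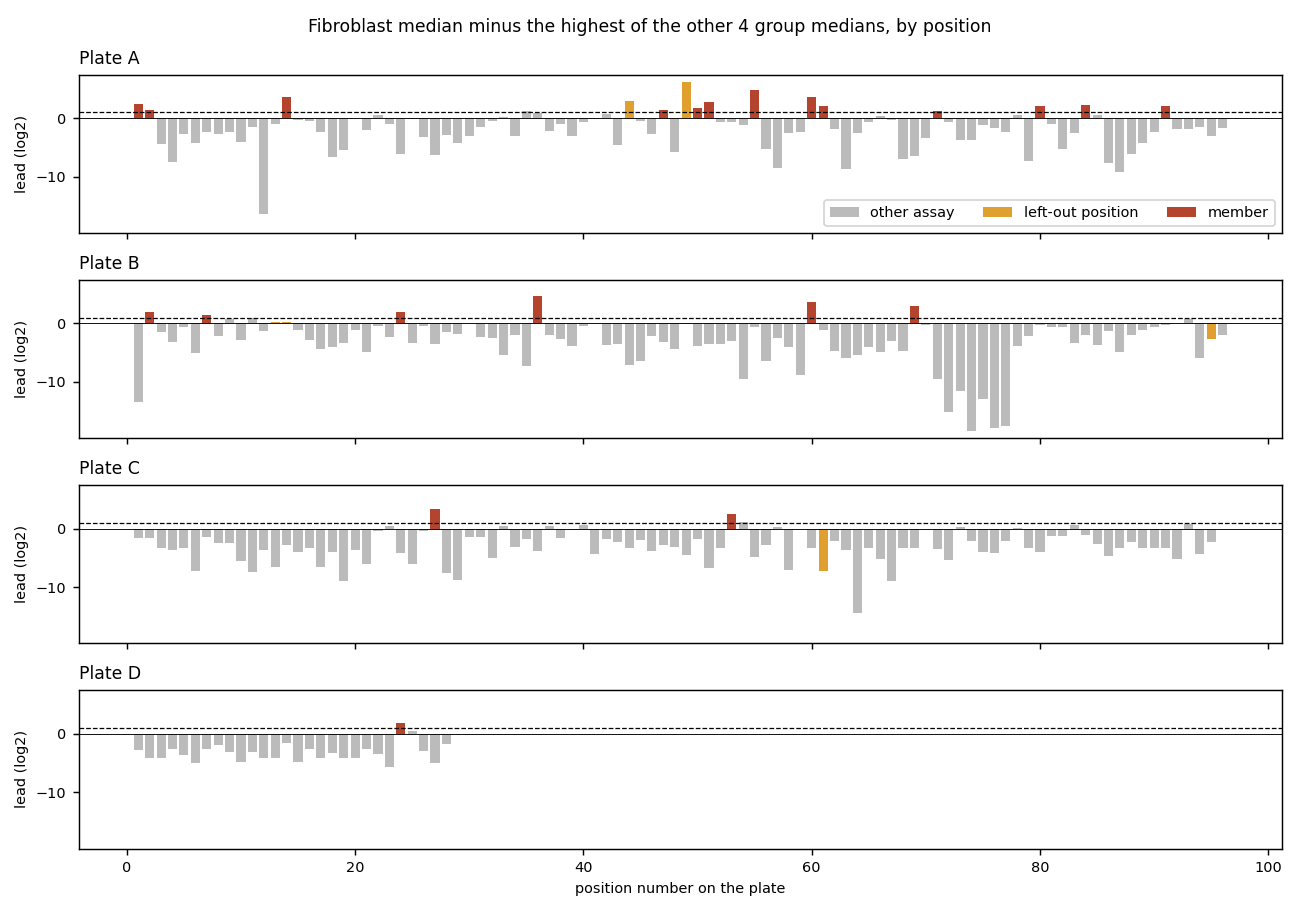
Lead of the fibroblast median over the highest of the other 4 group medians (vertical axis, log2) for all 315 positions (horizontal axis) of plates A to D. Red bars are the 22 fibroblast-enriched assays, orange bars the left-out positions, grey bars all others, and the dashed line is the threshold of 1. Plate A holds 13 of the 22 red bars.

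Activin A is used to direct pluripotent cells towards endoderm, and the treated iPSC were compared with fibroblasts and with untreated iPSC. In all 22 assays each of the 4 treated samples was lower than each of the 5 fibroblast samples, which held for 18.8% of 288 assays. The fibroblast median exceeded the treated median by 1.72 at A80 to 6.33 at B60, with a median of 4.15, against -0.25 over all 315 assays. At B60 2 of the 4 treated samples had no Ct, so its value rests on the limit, and B07 was next at 5.92. The fibroblast values chose the assays, so this is a description.

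Set against untreated iPSC, none of the 22 assays passed the test. Limma called 0 of them at an adjusted p under 0.05 (0.352% of the 284 assays tested, the call being the left-out C61, higher by 5.07, SE 1.10). An unadjusted p under 0.05 was found for 1 of the 22 (8.8% of all). By direction, 0 were higher (4.23% of all) and 1 lower (4.58% of all). The treated samples did not choose the assays, and leaving the untreated iPSC out of the choice gave the same 22. The fitted difference, treated minus untreated, was above 0 for 9 of 22 assays and for 46.1% of all, and its median was -0.23 over the 22 and -0.11 over all. The 95% interval lay within a 4-fold difference either way for A50 and A71 only, so a 4-fold difference in at least 1 direction was not excluded for the other 20. The SE behind each interval pools the spread within all groups, not that of iPSC alone. At A84 it was 2.63, where the SD in level was 9.66 in hepatocytes and 0.41 in untreated iPSC.

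B24 had the smallest p. Its level was 1.47, 1.96, 1.84, 1.29 and 1.39 in the untreated clones 1 to 5. It was 0.10 and -0.61 in the treated samples of clone 2 and -0.48 and 0.56 in those of clone 3. All 4 treated samples, which come from 2 clones, lay below all 5 untreated clones. How many of all assays separate in this way was not counted. The difference was -1.70 (SE 0.69, limma adjusted p 0.396), which did not pass. Fitted on these 2 groups alone, the difference had an SE of 0.49 (limma adjusted p 0.220). Relative to RNU6 it was -0.18 (adjusted p 0.921). A61 followed at -1.49 (SE 0.74, limma adjusted p 0.596), with 0.02 relative to RNU6. At the upper end A47 stood at 1.32 (SE 0.81) and A60 at 1.26 (SE 0.77), both with a limma adjusted p of 0.860.

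The direction of the whole set depended on the reference. With RNU6, recovered from the authors' values for these samples, 20 of the 22 assays were above 0 after treatment, as were 89.1% of all assays, and the median was 1.17 against 1.68 over all. On plate C, replicate 1 of treated clone 3 had a recovered RNU6 reference of 8.22, against -2.55 to 0.38 in the other treated samples. On plates A and B its reference was -0.16, against -1.57 to 0.96 in the other treated samples. The recovery fixes these references only up to a constant within each set of plates. They can be compared between samples of a set, not between sets. The 8.22 raises the treated level of every plate C assay, C27 and C53 included, and its share in these values was not tested. Relative to the median of all assays, the 22 stood at -0.51 with RNU6 and at -0.12 with the mean Ct. Limma called 0 of the 22 with RNU6 as well, with 3 at an unadjusted p under 0.05.

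Both treated clones were measured in duplicate, and in 9 of the 22 assays they lay on opposite sides of their untreated samples. In B36, A14, B60, A60, C27, B69, C53, B07 and A02, both treated samples of clone 2 were lower than untreated clone 2 and both of clone 3 were higher than untreated clone 3. This order was found in 13% of 284 assays. The reverse order was found in 0 of the 22 and in 19.7% of all. B60 showed it most, with a Ct of 29.1 in untreated clone 2 and no Ct in either treated sample, against 33.1 in untreated clone 3 and 30.1 and 28.9 after treatment. The response of clone 3 minus that of clone 2 was 8.81 at B60 (SE 2.21, limma adjusted p 0.221), with the missing values at the limit, and ranged from 1.59 to 3.85 in the other 8. Limma called 0 of the 22 and 0 of 284 assays for this difference, with 1 of the 22 and 3.87% of all at an unadjusted p under 0.05. Each clone had 1 untreated sample, which all 22 assays share. The SE pools the spread within all groups, and each lone untreated sample is assumed to vary like the others, so a difference that misses the threshold does not show that the clones responded alike. The order came from the same values, and the comparison was chosen after the values were seen.

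**Figure D4:**
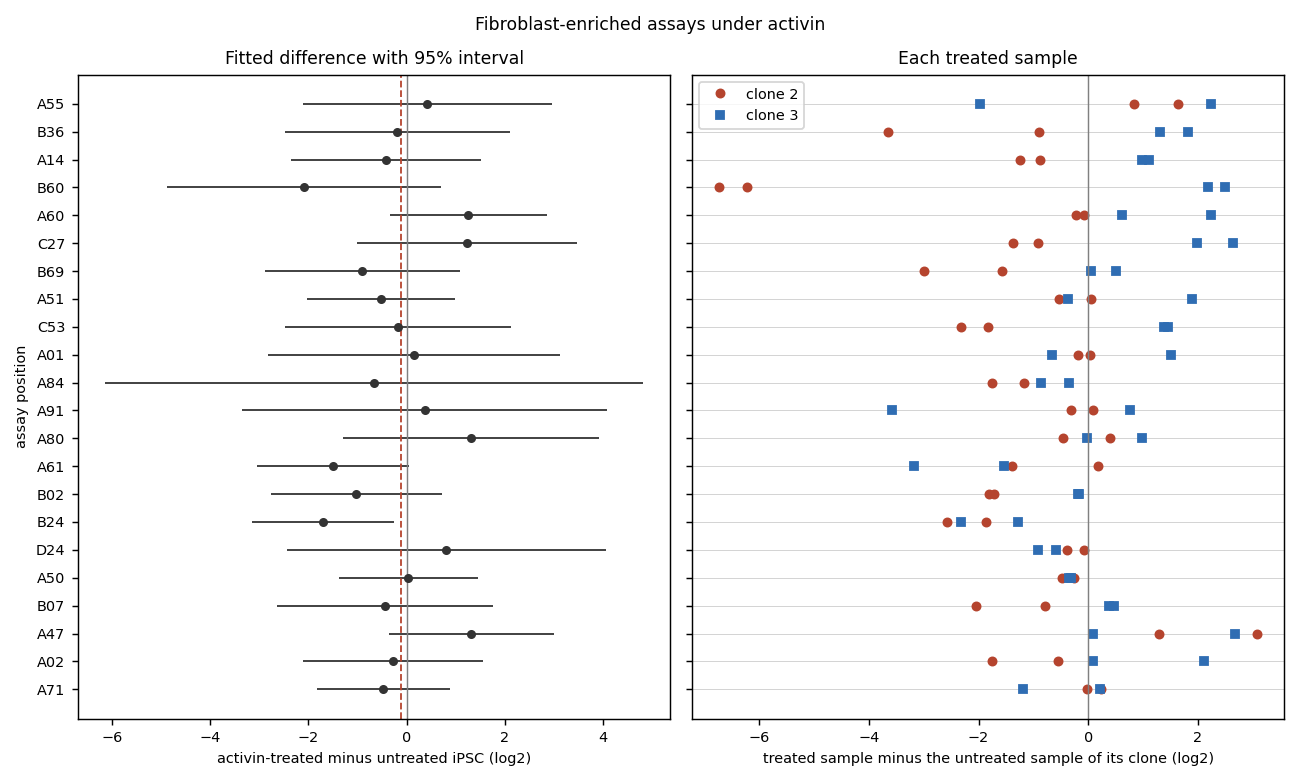
Left, fitted log2 difference of activin-treated minus untreated iPSC for the 22 assays with its 95% interval, the dashed red line being the median of all 284 assays tested. Right, each treated sample minus the untreated sample of its clone, with clone 2 as red circles and clone 3 as blue squares. All intervals but that of B24 include 0, and B60 has the widest gap between the clones.

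Between the ESC lines D3 and R1, which the rule pooled, no difference passed the test. Limma called 0 of the 22 at an adjusted p under 0.05 (0% of 273 assays), and at an unadjusted p under 0.05 there was 1 of the 22 (1.1% of all), with 0 higher in D3 (0.733% of all) and 1 lower, A01 (0.366% of all). D3 was above R1 in 9 of 22 and in 42.5% of all, and the median difference was -0.09, against -0.12 over all assays. The interval lay within a 4-fold difference for A50, A51, A60, A61, A71 and B24. At A01 the difference was -3.68 (SE 1.39, limma adjusted p 1.00), and it was -0.76 without D3 replicate 1, the sample that had no Ct there.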

How the data were processed

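The authors deposited raw Ct values, in PCR cycles, from TaqMan stem-loop RT-qPCR of 26 samples, with 5 ng of total RNA per reverse transcription and 40 PCR cycles, per the labels' protocols. The labels name 303 miRNAs and the table holds 315 positions. Of its 8190 values 950 are missing and 75 are exactly 36. The authors' deposited fold changes are on a log2 scale, as differences of Ct normalized to RNU6. No source used here gives the software or its threshold settings.

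Positions on plates A and B, on C and on D each had their own mean Ct reference. Members and lists were chosen with earlier results of these data known. Every member was named, and the 10 with the widest lead were given by sample. Group differences were fitted with limma 3.58.1 in R 4.3.3 (lmFit, eBayes) over all groups, with the treated samples of a clone averaged first (24 columns). Assays were tested where 50% or more of the samples in 1 of the groups compared had a Ct below 35, p-values were adjusted by Benjamini-Hochberg over all of them, and the threshold was 0.05. The fit was tested on 10 runs of simulated data, each with 60 changed assays. The noise was normal and independent between samples, duplicates of a clone included, and no Ct limit was applied. For activin it called 11.7% of the simulated 4-fold changes and 67.3% of the 16-fold changes. For D3 against R1 it called 17.7% and 68.7%, so most simulated 4-fold changes were missed. The data differ from these settings, so the rates in the data may be lower. RNU6 was recovered from the authors' values by least squares for iPSC, fibroblasts and treated iPSC. Those values do not link fibroblasts with islets or hepatocytes and do not cover ESC. Treated and untreated samples of a clone are paired by the labels, and the clone was an alternative block, which changed no call among the 22 assays. Limits of 32 and 40, other references, filters and left-out samples were also tried. Counting precision is not defined for a Ct, and the number of samples limits it. Python 3.11.15 with pandas 2.3.3, numpy 2.4.6 and matplotlib 3.10.9 did the rest.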

Additional observations from a re-analysis of the deposited data

Results flagged for a closer look

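In 7 of 88 sets of samples of 1 group at 1 assay, a single sample stood apart from the others. The groups were fibroblasts, untreated iPSC, ESC with both lines pooled, and treated iPSC with both clones pooled. Islets and hepatocytes were not examined in this way. Chance alone sets apart about 1 set in 20. A60 was at 1.60 in fibroblast replicate 3, above 0.27 to 0.56 in the other fibroblasts. A02 was at 1.71 in fibroblast replicate 4, above 0.33 to 0.71 in the others. The sample iPSC clone 5 stood apart 3 times. It had no Ct at A91 and A80 (both -8.11 with the Ct at the limit) and a Ct of 34.5 at D24 (-7.27). The other clones lay between -3.78 and -2.65 at A91, between -2.41 and -1.27 at A80 and between -1.90 and -0.38 at D24. A91 was also at -6.74 in replicate 2 of treated clone 3, against -3.07 to -2.40 in the other treated samples. A01 was at -8.01 in ESC D3 replicate 1, which had no Ct, against 0.17 to 1.58 in the other ESC samples.

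At the 9 assays named above, the treated samples of the clones lay on opposite sides of their untreated samples. The limma test of the difference called none, and it has 1 untreated sample per clone and a spread pooled over all groups. Over the 22 assays, those untreated samples had the highest (clone 2) and the lowest (clone 3) median level of the untreated clones. The response of clone 3 minus that of clone 2 was 3.85 at B36, 2.10 at A14, 8.81 at B60, 1.59 at A60, 3.47 at C27, 2.56 at B69, 3.49 at C53, 1.85 at B07 and 2.25 at A02.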

How the results depend on the processing

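Under 32 other settings, between 21 and 40 assays met the rule. The 40 came from raw Ct with no reference, chosen after the data were seen, which kept 19 of the 22. Quantile normalization gave 30 and kept 20, the limit at 40 gave 30 and kept all 22, and the mean Ct over all position sets gave 25 and kept 19. Leaving out each sample in turn gave 22 to 25 assays and lost at most 1 of the 22, C53 or A84. The leads of the 10 assays given by sample stayed above 1 in all but 2 of 300 recomputed values, both of C53, at 0.28 without islet replicate 2 and 0.37 without islet replicate 3. For the other 9 the lowest was 1.96, and leaving out samples other than fibroblasts was added after the data were seen. The calls among the 22 remained 0 in all 20 settings for activin and in all 15 for D3 against R1. The median for activin was 1.17 with RNU6 and otherwise -0.43 to -0.03, the range without each sample in turn being -0.41 to -0.03. The median for D3 against R1 ran from -0.35 to 0.13 without each sample in turn. With the clone as a replicate block the activin median was -0.34, with 0 calls. With a replicate block on the numbers of D3 and R1, whose deviations correlated at 0.177, -0.11 and -0.0865, that median was -0.09, with 0 calls, so those numbers were not taken to pair the samples. The rule relative to RNU6 was not run, since the recovered values do not link fibroblasts with islets or hepatocytes. Over all assays, 0 to 5 were called for activin. At A14, A60, A61, B36 and B60 the median hepatocyte level is set by the limit of 35, as is that of islets at A60 and in part that of treated iPSC at B60.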
